A study of Mus musculus with 16 samples.

Results

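Sphingolipids are membrane lipids built on a sphingoid base, and ceramide is the hub of the pathway. Serine palmitoyltransferase makes the base and ceramide synthases add a fatty acid. The ceramide then receives a phosphocholine head group from a sphingomyelin synthase, or a glucose from glucosylceramide synthase. Acid sphingomyelinase returns sphingomyelin to ceramide, and ceramidases cleave ceramide to sphingosine, the precursor of the signalling lipid sphingosine 1-phosphate. Blood cells follow gradients of that lipid into the circulation.

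The transcripts described here are those of 10 enzymes of this pathway, out of 23420 gene symbols in each table. They were picked by symbol: Sptlc1, Sptlc2, Cers2, Cers5, Cers6, Sgms1, Sgms2, Smpd1, Ugcg and Asah1. The choice was made with the fold changes of both populations known, and Sgms2 led it because of its fall in GMP. The levels, fold changes and standard errors (SE) of these genes are therefore a description and not a test. All 10 were found in both tables, and all 10 passed the authors' filter in both. Genes that passed it carry an adjusted p and are called tested below.

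Tet2 encodes an enzyme that oxidizes methylated cytosine in DNA. The compared groups were granulocyte-monocyte progenitors (GMP) labelled Tet2KO, genotype Tet2-/-, against GMP labelled WT, genotype Tet2fl/fl, and multipotent progenitors (MPP) labelled Tet2KO against MPP labelled WT, with the same genotypes. Each group held 4 libraries from single mice aged 40 weeks, sorted from bone marrow. The sources used here name no Cre driver and no stage of deletion. For each genotype, 3 mice gave both populations.

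The deposited values are comparisons between groups and means over all libraries of a population, so no value per library can be shown and the depth of each library is unknown. The markers of the sorts followed the labels, with Ly6a (encoding Sca1) at a mean normalized count of 19.5 in GMP and 266 in MPP, and Fcgr3 (encoding CD16) at 525 in GMP and 19.3 in MPP. These tables were normalized separately. Tet2 itself had a log2 fold change of 0.35 (SE 0.0748) in GMP and 0.44 (SE 0.0992) in MPP in the authors' deposited tables, above 0 in the libraries labelled Tet2KO. A value for the whole gene does not show whether a deleted exon is missing, so it does not check the labels, and each direction below is the one the authors gave in naming their tables.

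Sgms2 encodes sphingomyelin synthase 2, which makes sphingomyelin and diacylglycerol from ceramide and phosphatidylcholine, mainly at the plasma membrane. Its paralogue Sgms1 encodes sphingomyelin synthase 1, which acts mainly in the Golgi. Sgms2 lies on chromosome 3 (131318985 to 131491411, minus strand, mm10) and Sgms1 on chromosome 19 (32122727 to 32389714, minus strand). RefSeq (GRCm38.p6) lists 6 transcription starts for Sgms2 and 4 for Sgms1. The stretches below are shown because TET2 acts on methylated cytosine, mostly in CG dinucleotides, and because the starts of Sgms2 differ in how many CG they have. They are the parts of the 250 bases before each start that lie under no annotated GENCODE exon, read 5′ to 3′ on the gene's strand, with each CG in capitals.
Sgms2, CG-richest start, chr3:131490231-131490407: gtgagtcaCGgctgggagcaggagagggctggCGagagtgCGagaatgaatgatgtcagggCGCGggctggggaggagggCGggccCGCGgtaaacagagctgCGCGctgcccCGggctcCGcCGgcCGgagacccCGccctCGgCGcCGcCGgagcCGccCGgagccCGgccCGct
Sgms2, most downstream start, chr3:131344941-131345158: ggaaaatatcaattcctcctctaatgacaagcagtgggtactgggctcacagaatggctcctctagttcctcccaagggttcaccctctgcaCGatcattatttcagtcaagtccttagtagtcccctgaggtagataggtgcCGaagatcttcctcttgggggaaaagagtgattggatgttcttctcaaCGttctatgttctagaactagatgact
Sgms1, CG-richest start, chr19:32388050-32388219: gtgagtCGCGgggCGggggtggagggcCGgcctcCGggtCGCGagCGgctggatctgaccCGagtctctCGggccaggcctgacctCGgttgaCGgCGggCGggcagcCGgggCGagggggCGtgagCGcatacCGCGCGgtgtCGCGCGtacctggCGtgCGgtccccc

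The first stretch holds 23 CG and the second 3, and the 2 starts of Sgms2 lie 145 kb apart. In the full 250 bases there were 36 CG before the CG-richest start of Sgms2 and 4 before its most downstream start, against a median of 6 over 32851 promoters of that length. Sgms1 had 41 before its CG-richest start and 3 before its CG-poorest, so a wide range between starts was not particular to Sgms2. The deposited values are per gene, so they do not show which start was in use in either population. The E-box CACGTG, which reads the same on both strands, was present in the 250 bases of 6.02% of all promoters. It was found before 1 start each of Cers2, Cers6 and Sgms2, out of 18 starts of 9 enzymes. Asah1 is not among the promoters used here.

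In GMP, Sgms2 had a mean normalized count of 758 over the 8 libraries and a log2 fold change of -0.9996 (SE 0.158) in the authors' deposited table. On a linear scale that is a ratio of 0.5001 for Tet2KO over WT, with a 95% interval of 0.404 to 0.620. Together with the mean, the ratio implies a level of about 505 in Tet2KO GMP and 1010 in WT GMP, normalized counts derived here and not measured per group in the files. Of 11503 genes tested in GMP, 14 had a lower fold change than Sgms2, which ranks it 15 from the lowest, and it ranked 14 by p in the authors' deposited table. It was the 1 enzyme of the 10 among the called genes, those with an adjusted p of at most 0.05, where 3.96% of all tested genes were called, 2.22% lower and 1.75% higher. Since Sgms2 was chosen for this fall, the count adds nothing to it. In sorted bulk cells, fewer Sgms2-expressing cells and less Sgms2 RNA per cell cannot be told apart.

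The SE of Sgms2 in GMP was large for its level. Among 941 GMP genes whose mean lay within 1.2-fold of that of Sgms2, the median SE was 0.0880, and 99.8% had a smaller SE than the 0.158 of Sgms2. At a like mean and n, a larger SE goes with a larger estimated spread between libraries. Whether 1 library carries the fall cannot be read from a table without values per library. The authors did not mark the gene as an outlier.

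In MPP, Sgms2 was near the lower limit of what was tested. Its mean normalized count was 16.6, where the filter begins at 10, and its log2 fold change was 0.02 (SE 0.385) in the authors' deposited table. The ratio of Tet2KO over WT was 1.01 with a 95% interval of 0.599 to 1.70, so a moderate change in either direction lies within it. Fold changes in these tables appear shrunken towards 0, which narrows such an interval for weakly expressed genes. The SE of Sgms2 was close to the highest of any gene in MPP, 0.388. The interval therefore cannot exclude a fall in MPP as large as that in GMP, although such a fall lies outside it.

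**Figure D1:**
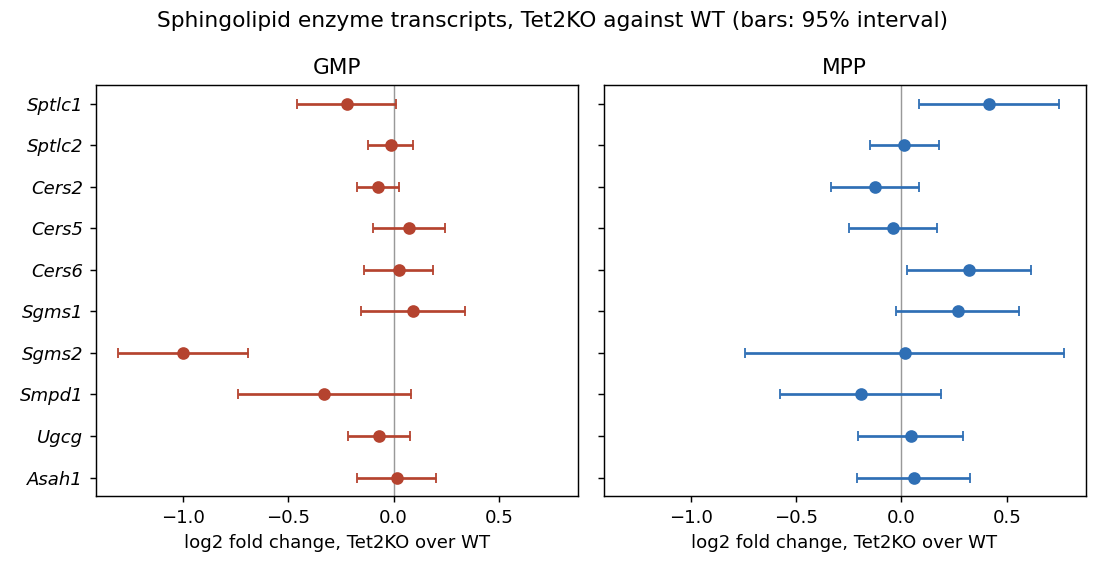
Log2 fold change of Tet2KO over WT (x axis) for each of the 10 enzymes (rows), in GMP on the left and MPP on the right, with points for the authors' estimate and bars for its 95% interval. Sgms2 stands at -0.9996 in GMP with no overlap with 0, and its bar in MPP is the widest of the plot.

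Sgms2 was far more abundant in GMP than in MPP. Its mean was 758 in GMP and 16.6 in MPP, a ratio of 45.5 between tables normalized separately. None of the 11618 genes whose means reached 10 in GMP and in MPP had a higher ratio of GMP over MPP, although 1 had a larger ratio in the opposite direction, at 84.4 for MPP over GMP. The median ratio over 11050 genes tested in both was 1.05. Among genes with a GMP mean of at least 10, 1 was at 0 in MPP and had no finite ratio. When the others with an MPP mean under 10 were let in, 2 of 11799 had a higher ratio than Sgms2. One of them was Cebpe, a transcription factor gene of granulocyte maturation, with a mean of 151 in GMP and 2.70 in MPP, a ratio of 56.0. Among other known markers of GMP, the ratio was 28.8 for Elane, the neutrophil elastase gene, 27.2 for Fcgr3 and 8.44 for Mpo, the myeloperoxidase gene. These ratios are descriptions, since no fit holds both populations. They also average over both genotypes, with Sgms2 lower in Tet2KO GMP.

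The paralogue ran the other way between populations. Sgms1 had a mean of 429 in GMP and 772 in MPP, a ratio of 0.556 that only 7.33% of genes tested in both fell below. Per kilobase of annotated exon, Sgms2 reached 122 and Sgms1 40.7 in GMP, so Sgms2 gave 74.9% of the summed level of both synthases. In MPP it gave 3.52%, with 2.67 per kilobase for Sgms2 and 73.2 for Sgms1. With the levels implied by the fold changes, the Sgms2 share was 65.9% in Tet2KO GMP and 80.5% in WT GMP. Sgms2 therefore remained the more abundant synthase transcript of the pair in Tet2KO GMP by these derived levels, at 81.2 per kilobase against 42.0 for Sgms1.

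Sgms1 itself showed no call in either population. Its log2 fold change was 0.09 (SE 0.126) in GMP and 0.27 (SE 0.149) in MPP in the authors' deposited tables. The 95% interval of its ratio of Tet2KO over WT ran from 0.898 to 1.27 in GMP, so a rise of Sgms1 as large as the fall of Sgms2 lies outside it. Samd8, which encodes the related enzyme that makes ceramide phosphoethanolamine, had values of 0.08 (SE 0.112) in GMP and -0.06 (SE 0.158) in MPP in the authors' deposited tables.

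**Figure D2:**
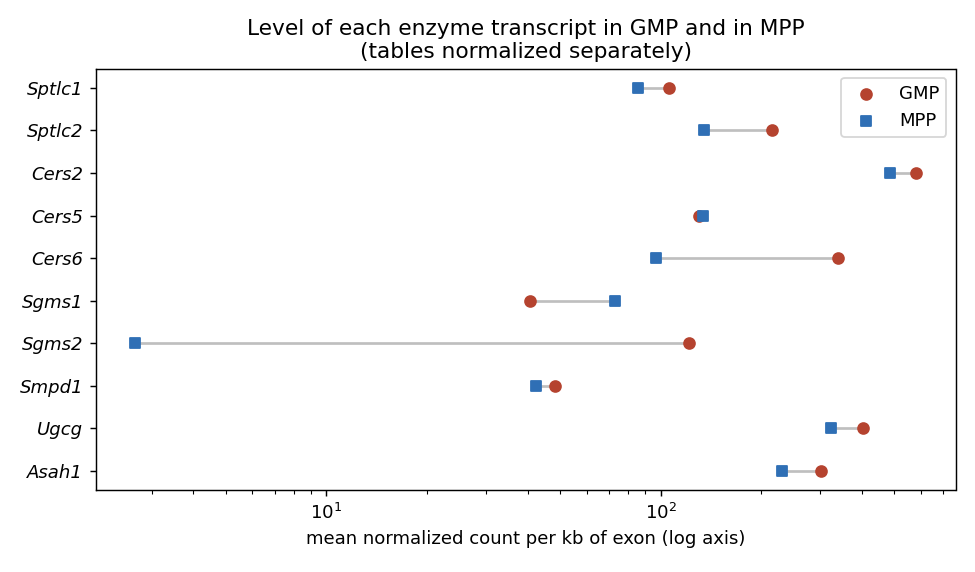
Mean normalized count per kilobase of exon (x axis, log scale) for each of the 10 enzymes (rows), with circles for GMP and squares for MPP, joined by a line. Sgms2 spans 122 in GMP and 2.67 in MPP, and Sgms1 is lower in GMP than in MPP, at 40.7 against 73.2.

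Sptlc1 and Sptlc2 encode the paired large subunits of serine palmitoyltransferase, the enzyme of the first and rate-limiting step. Sptlc1 had a log2 fold change of -0.22 (SE 0.120) in GMP and 0.42 (SE 0.170) in MPP in the authors' deposited tables, and neither was called. With 0.341 in GMP and 0.347 in MPP (authors' deposited tables), its adjusted p was the next smallest after that of Sgms2 in GMP and the smallest of the 10 in MPP. Sptlc2 lay close to 0 in both populations, at -0.01 (SE 0.0546) in GMP and 0.01 (SE 0.0842) in MPP in the authors' deposited tables. Its 95% interval of the ratio was 0.919 to 1.07 in GMP, among the narrowest here. The subunits thus had different point values in MPP with intervals that overlapped, that of Sptlc1 running from 1.06 to 1.68 and that of Sptlc2 from 0.901 to 1.13.

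Ceramide synthases differ in the length of the fatty acid they add, very long for the product of Cers2 and shorter for those of Cers5 and Cers6. Cers2 was the most abundant of the 10 per kilobase in both populations, at 582 in GMP and 484 in MPP. Its log2 fold change was -0.07 (SE 0.0504) in GMP and -0.12 (SE 0.107) in MPP in the authors' deposited tables. Cers5 had 0.07 (SE 0.0868) in GMP and -0.04 (SE 0.107) in MPP in the authors' deposited tables. Cers6 had 0.02 (SE 0.0837) in GMP and 0.32 (SE 0.150) in MPP in the authors' deposited tables, without a call. None of these synthases was therefore called in either population.

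By level, Cers6 followed Sgms2 among the 10 in how far the populations lay apart. Its mean was 3015 in GMP and 859 in MPP, a ratio of 3.51 that 76 of 11050 genes exceeded. The ratios of the other 8 enzymes, Sgms1 included, ran from 0.556 to 1.60, while 90% of genes tested in both lay between 0.477 and 1.69.

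Smpd1 encodes acid sphingomyelinase, the lysosomal enzyme that is lost in human Niemann-Pick disease types A and B. In GMP its log2 fold change was -0.33 (SE 0.209) in the authors' deposited table, the lowest value after that of Sgms2, and its SE exceeded that of 98.1% of 877 genes of like mean. In MPP it was -0.19 (SE 0.194) in the authors' deposited table. Neither was called, and the 95% interval of the ratio ran from 0.5998 to 1.06 in GMP.

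Ugcg encodes glucosylceramide synthase, the entry to the glycosphingolipids, and Asah1 encodes acid ceramidase, whose loss causes Farber disease in humans. Ugcg had a log2 fold change of -0.07 (SE 0.0751) in GMP and 0.04 (SE 0.127) in MPP in the authors' deposited tables. Asah1 had 0.01 (SE 0.0961) in GMP and 0.06 (SE 0.137) in MPP in the authors' deposited tables. For both genes the 95% intervals of the ratio in GMP stayed within 0.861 and 1.15.

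As a group, 6 of the 10 enzymes lay below 0 in GMP and 3 of 10 in MPP, where 49.9% of tested GMP genes and 50.9% of tested MPP genes did. The median log2 fold change of the 10 was -0.04 in GMP and 0.03 in MPP, beside 0.00025 and -0.0038 over all tested genes. In MPP none of the 10 was called, against 0.616% of all tested genes, and 2 had an unadjusted p under 0.05 (DESeq2, in the authors' deposited table), namely Sptlc1 and Cers6, where 9.72% of all tested genes did.

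**Figure D3:**
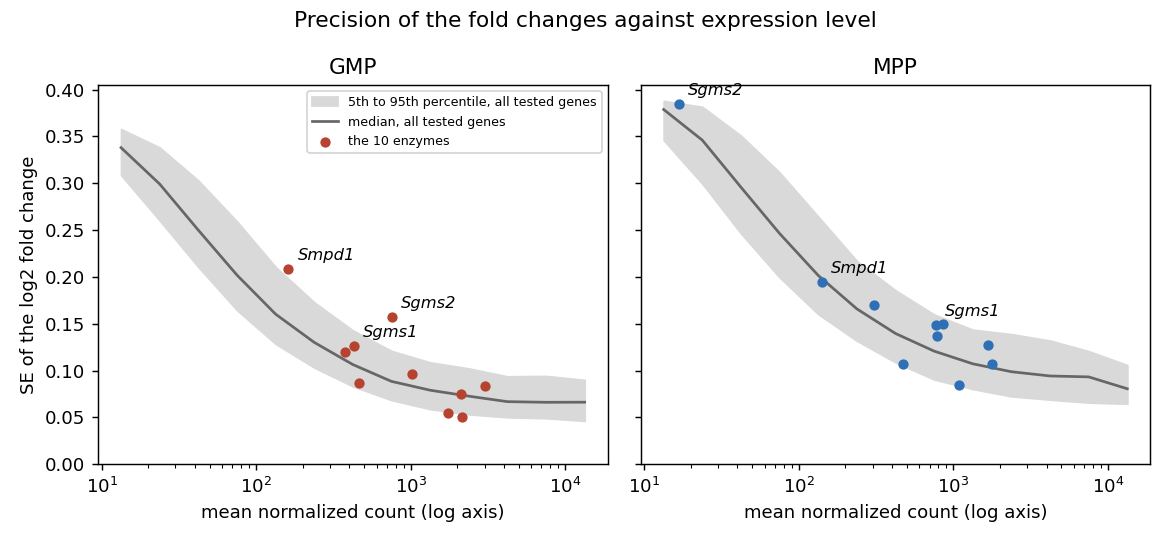
SE of the log2 fold change (y axis) against the mean normalized count (x axis, log scale) for the 10 enzymes (points), over the median (line) and the 5th to 95th percentile (band) of all tested genes, in GMP on the left and MPP on the right. Sgms2 lies above the band in GMP at an SE of 0.158, and Smpd1 lies just above its upper edge at 0.209.

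Whether the change differed between populations was asked through the difference of both log2 fold changes, GMP minus MPP, divided by the SE of that difference. The p-values were two-sided and adjusted by Benjamini-Hochberg over 17660 genes. None of the 10 enzymes passed, where 0.0453% of genes did. For Sgms2 the difference was -1.01 (95% interval -1.83 to -0.20, adjusted p = 0.9999), so its fall in GMP was not shown to be larger than any change in MPP. Sgms2 was chosen for its fall in GMP, and that value enters the difference. Its MPP value, from a weakly expressed gene and apparently shrunken towards 0, enters it too, so this interval may be too narrow. Sptlc1 had a difference of -0.64 (95% interval -1.05 to -0.23, adjusted p = 0.691). For the other 8 the interval of the difference held 0. The SE of the difference assumes unrelated errors in GMP and MPP, although mice were shared.

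**Figure D4:**
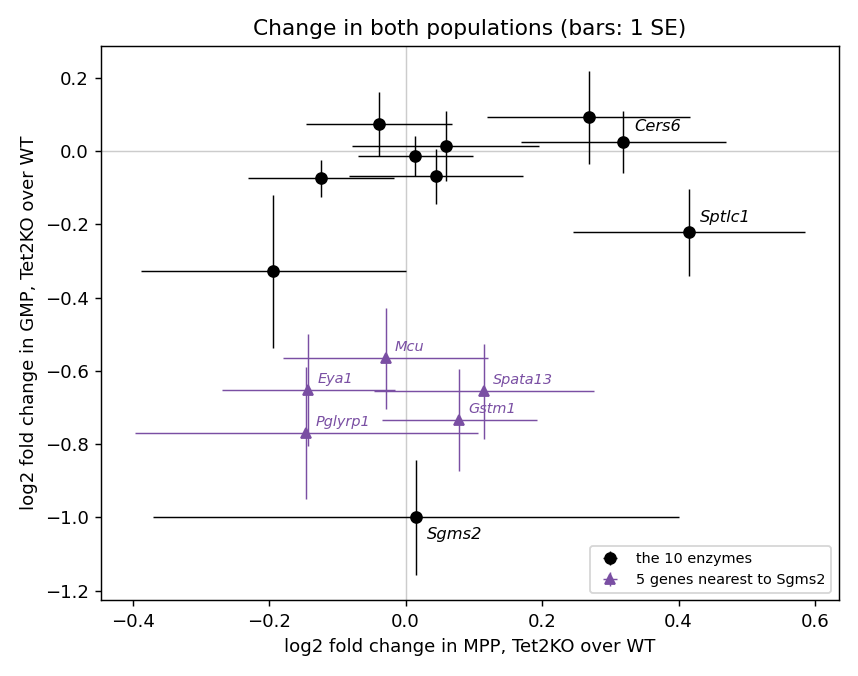
Log2 fold change of Tet2KO over WT in GMP (y axis) against that in MPP (x axis) for the 10 enzymes (circles) and the 5 genes nearest to Sgms2 (triangles), with bars of 1 SE. Sgms2 lies alone at -0.9996 in GMP, and the nearest genes lie between -0.57 and -0.77.

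Genes whose pair of fold changes lay nearest to that of Sgms2 were sought among the 9102 genes whose means reached 50 in GMP and in MPP. The 5 nearest, by Euclidean distance over these 2 populations, were Gstm1 (0.274), Pglyrp1 (0.280), Spata13 (0.358), Eya1 (0.382) and Mcu (0.437). Gstm1, a glutathione transferase gene, had log2 fold changes of -0.73 in GMP and 0.08 in MPP in the authors' deposited tables. Pglyrp1, which encodes a peptidoglycan recognition protein of neutrophil granules, had -0.77 in GMP and -0.15 in MPP in the authors' deposited tables. Even the nearest gene was thus 0.27 away on the log2 scale, less than the SE of Sgms2 in MPP.

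A wider list of 72 sphingolipid genes, the 10 enzymes included, was then read by step of the pathway. In GMP 56 were tested, 2 were called, both lower, and 12 had a mean under 10 while 4 were marked as outliers. Without the 10 enzymes, 1 of 46 tested genes was called in GMP and none of 46 in MPP (DESeq2, in the authors' deposited tables), a share of 2.17% in GMP beside 3.96% of all tested genes, and of 0 in MPP beside 0.616%. An unadjusted p under 0.05 was held by 21.7% of the 46 in GMP beside 16.4% of all tested genes, and by 8.70% in MPP beside 9.72%, in the authors' deposited tables. The median log2 fold change of those 46 was -0.07 in GMP and -0.00404 in MPP.

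The called gene was Spns2, which encodes an exporter of sphingosine 1-phosphate. It fell by 0.25 (SE 0.0717, adjusted p = 0.0207) in GMP in the authors' deposited table, where its mean was 1156. In MPP its value in the authors' deposited table was 0.16 (SE 0.115, adjusted p = 0.706). The difference between populations did not pass for it (adjusted p = 0.754). The call in GMP was lost with an empirical null and with an adjusted p of 0.01.

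Receptors for the same lipid were not called. S1pr2 had 0.36 (SE 0.133, adjusted p = 0.0965) in GMP in the authors' deposited table, and of the 4 receptor genes tested, 2 lay above 0 in GMP and all 4 in MPP. Receptor values in MPP ran from 0.02 to 0.46 in the authors' deposited table.

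Several steps leaned below 0 in GMP without a call. All 6 tested genes of serine palmitoyltransferase and its regulators did so, from -0.22 to -0.01 in the authors' deposited table. In MPP 4 of 6 lay below 0, with the lowest value that of Ormdl3, a regulator that restrains the enzyme, at -0.53 (SE 0.182, adjusted p = 0.194, authors' deposited table). Of 12 tested genes of glycosphingolipid breakdown, most of them lysosomal, 10 lay below 0 in GMP with a median of -0.13, and 4 (33.3%) had an unadjusted p under 0.05, beside 16.4% of all tested genes. In MPP 8 of 11 lay below 0, and Hexa, a subunit gene of beta-hexosaminidase, had the lowest value at -0.43 (SE 0.147, adjusted p = 0.198, authors' deposited table).

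Other steps had values on both sides of 0 in GMP. In MPP all 4 tested ceramidase genes lay above 0. Ceramide transport and phosphorylation had 3 of 5 tested genes below 0 in GMP, with Col4a3bp, the ceramide transfer protein gene, at -0.16 (SE 0.0755, adjusted p = 0.249, authors' deposited table). Smpd2, a neutral sphingomyelinase gene, had 0.32 (SE 0.192, adjusted p = 0.422) in GMP in the authors' deposited table. In MPP, B4galt6, a lactosylceramide synthase gene, had a value of 0.41 (SE 0.175, adjusted p = 0.372, authors' deposited table). Degs2, a dihydroceramide desaturase gene, had 0.71 in MPP (SE 0.388, adjusted p = 0.547, authors' deposited table), and Acer2, a Golgi ceramidase gene, had 0.37 (SE 0.261, adjusted p = 0.693) there.

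**Figure D5:**
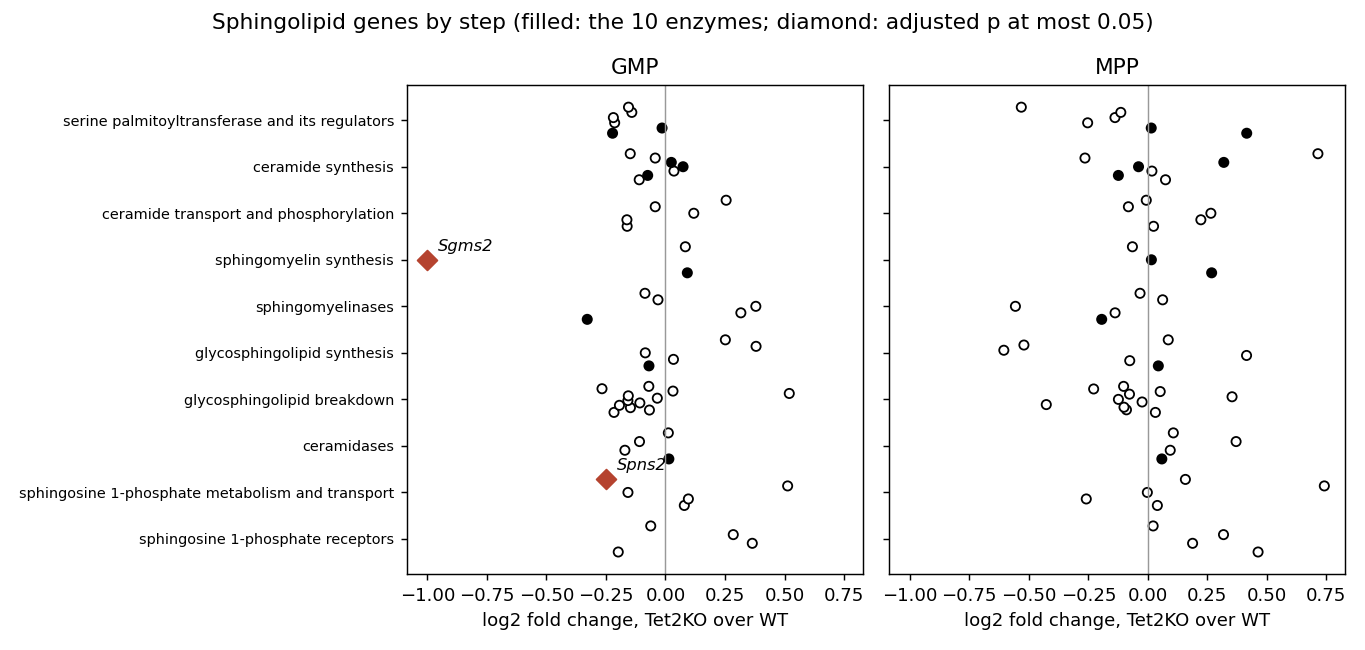
Log2 fold change of Tet2KO over WT (x axis) for each tested gene of the 72 by step of the pathway (rows), in GMP on the left and MPP on the right. Filled points are the 10 enzymes, open points the other genes and diamonds the called genes, of which Sgms2 and Spns2 in GMP are the only ones shown.

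Markers of other myeloid cells moved in the same GMP comparison in which Sgms2 fell. Of 9 monocyte and macrophage markers, 7 were tested and 4 were called higher, where 1.75% of all tested genes were, with summed means of 4357 over the list and none at 0. Csf1r, the receptor gene for macrophage colony-stimulating factor, rose by 0.56 in the authors' deposited table (SE 0.111, adjusted p = 9.29e-05), and Ms4a6c, a membrane protein gene, by 0.56 (SE 0.0812, adjusted p = 6.74e-09). Only 1 of the 7 lay below 0, Cx3cr1 at -0.30 (SE 0.151, authors' deposited table), without a call. Of 8 mast cell and basophil markers, 4 were tested and 2 were called lower, where 2.22% of all tested genes were, with summed means of 7557 and 3 marked as outliers. Gata2, a transcription factor gene of that lineage and of stem cells, fell by 0.37 in the authors' deposited table (SE 0.114, adjusted p = 0.0326), and Cma1, a chymase gene, fell by 1.71 (SE 0.338, adjusted p = 9.45e-05). Of 8 late neutrophil markers, 2 were tested and 1 was called higher, and 5 had a mean under 10. That gene was Mmp8, a neutrophil collagenase gene, at 1.36 in the authors' deposited table (SE 0.252, adjusted p = 2.21e-05). The other tested marker, S100a8, was not called and lay below 0, at -0.42 (SE 0.254, authors' deposited table). Of 5 tested megakaryocyte markers 2 were called higher in the authors' deposited table, Pf4, a platelet chemokine gene, at 1.35 (SE 0.345, adjusted p = 0.00620) and Vwf, the von Willebrand factor gene, at 1.01 (SE 0.206, adjusted p = 0.000145). The other 3 were not called, and 1 of them lay below 0, Gp9 at -0.34 (SE 0.346, authors' deposited table). Of 4 tested dendritic cell markers 1 was called higher, Irf8, a transcription factor gene also of monocytes, at 0.50 in the authors' deposited table (SE 0.131, adjusted p = 0.00936). Of the 7 GMP markers, 6 were tested and none was called, but 3 had an unadjusted p under 0.05 (DESeq2, in the authors' deposited table), beside 16.4% of all tested genes. All 3 lay below 0 in Tet2KO GMP in the authors' deposited table. They were Fcgr3 at -0.32 (SE 0.143), Fcgr2b at -0.26 (SE 0.118) and Cebpe at -0.41 (SE 0.171), picked here after their values were seen. The other 3 tested lay above 0, Mpo at 0.08 (SE 0.0774), Prtn3 at 0.04 (SE 0.112) and Kit at 0.01 (SE 0.0608, authors' deposited table). The tables give these levels over both genotypes together, and the part of such cells in the fall of Sgms2 was not tested.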

How the data were processed

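RNA from sorted GMP and MPP (2 ng, amplified) was sequenced in single-end runs of 75 bp, per the labels' protocols. The authors aligned with STAR to mm10 and compared groups with DESeq2, per the submitters' processing notes, without versions; what counted the reads, whether by strand, and on which gene models is not given in the sources used here. Each deposited table gives a normalized signal per gene (the mean over all libraries of a population, per the file headers), the log2 fold change between Tet2KO and WT and its SE, and the authors' p-value and adjusted p-value. The adjusted p-value was recomputed from the deposited p-values within 2.4e-05. Genes with a mean under 10 carry no adjusted p-value, and genes marked as outliers no p-value. Depth per library is unknown.

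Intervals are the log2 fold change ± the normal 95% quantile times its SE. Levels per kilobase use merged GENCODE exons (mm10), which may differ from the authors' gene models. Where a gene overlaps another on the opposite strand, as Cers2 does Setdb1 and Sgms2 the pseudogene Gm43116, reads of the pair may not be told apart. The calculation of the difference between populations was tried on simulated data with unrelated errors in GMP and MPP, for genes tested in both. That trial does not cover errors related through shared mice. Alternatives changed the threshold, the filter on low means, the null distribution, the centring and the error model. Named are the 10 enzymes, each called gene of the wider list, the gene of smallest p for steps without a call, the 5 genes nearest to Sgms2, and up to 2 called markers of each list that moved in GMP. The enzymes and lists were chosen with earlier results of these data known. Used were scipy 1.17.1, numpy 2.4.6, matplotlib 3.10.9, pandas 2.3.3 and Python 3.11.15.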

Additional observations from a re-analysis of the deposited data

How the results depend on the processing

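The count of 1 of the 10 enzymes called in GMP, Sgms2, was the same under all 7 alternatives tried, as was the count of 0 in MPP and, under 5 alternatives, the count of 0 for the difference between populations. Of 56 tested genes of the wider list, 2 were called in GMP. That count was 1 at an adjusted p of 0.01 and 4 at an adjusted p of 0.1. It was 1 with an empirical null and 1 when the log2 fold change also had to reach 0.5 in size. Sgms2 was among them each time. The called share of all tested GMP genes was 3.96%, against 1.72%, 6.68%, 0.626% and 1.38% under these alternatives in the same order. Over all genes, the empirical null left 72 of 456 calls in GMP and 18 of 73 in MPP. With the errors of both tables taken as correlated at 0.346, the value of both statistics across genes, the adjusted p of the difference was 0.311 for Sgms2 and 0.0581 for Sptlc1. At a minimum mean of 50 Sgms2 drops out of MPP and of the difference. All 10 enzymes kept their sign in both populations after recentring on the median of all tested genes. No paired analysis was possible because the tables hold no values per library, and for the same reason no library could be left out.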

Other observations

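Genes of the sphingosine 1-phosphate arm that the authors marked as outliers carry no p-value. They stand outside the counts of tested and called genes above, except in the alternative without a filter on low means or outliers. Sphk1, a sphingosine kinase gene, had a mean of 78.1 and a log2 fold change of -0.10 (SE 0.359) in GMP, and a mean of 63.1 and -0.02 (SE 0.381) in MPP, in the authors' deposited tables. Mfsd2b, which encodes an exporter of that lipid in red cells and platelets, had 0.19 (SE 0.306) in GMP and 0.40 (SE 0.294) in MPP in the authors' deposited tables. Erythroid markers were marked in the same way, with 6 of 9 so marked in each population and none with an adjusted p.

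Near Sgms2 on chromosome 3, 4 other protein-coding genes lie within 300 kb. Papss1, which encodes a synthase of the sulfate donor of the cell and lies 73.4 kb away, had -0.34 (SE 0.110, adjusted p = 0.0508) in GMP and -0.26 (SE 0.167, adjusted p = 0.658) in MPP in the authors' deposited tables. Hadh, a gene of fatty acid oxidation 46.9 kb away, had -0.10 (SE 0.0973, adjusted p = 0.670) in GMP in the authors' deposited table. Lef1 and Cyp2u1 had means under 10 and carry no adjusted p. These neighbours were chosen after the values of the enzymes were seen.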
